A study of Mus musculus with 4 samples.

Results

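The genes described here encode the proteins of the mitochondrial ribosome and were measured by RNA sequencing in the newborn mouse lung. They were taken by name from a table of normalized read counts: protein-coding genes with a symbol of Mrpl or Mrps and a number, with a mean value of at least 10 over the 4 lungs. Of 77 genes with such a symbol 76 met the minimum, 47 named for the large subunit and 29 for the small subunit, among 18436 genes at that level and 48709 in the table. The gene left out, Mrpl53, had values of 0 and 1 in mutant lungs and of 0 and 2 in wild-type lungs, and all of its annotated exon sequence also belongs to Gm42688 on the same strand. The samples were the left lung lobes of 2 RykSL/SL mice, called mutant here, and of 2 wild-type mice, all on the C57BL/6 strain, at postnatal day 1 and without treatment. Ryk encodes a receptor for WNT ligands that spans the membrane once and has a kinase-like domain. What the SL allele changes in Ryk is not said in the labels. Each lung is a separate mouse, and the comparison asks how the genotypes differ in lung RNA.

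Mitochondria keep a ribosome of their own, which descends from a bacterial one and makes only the hydrophobic core subunits of the respiratory chain and of ATP synthase that mitochondrial DNA encodes. Its RNAs come from mitochondrial DNA, while all of its proteins are made from nuclear genes in the cytosol and imported. Part of these proteins have a counterpart in the bacterial ribosome and the others were added in the mitochondrial lineage. The small subunit reads the messenger RNA, and the large subunit joins the amino acids and passes the chain to the inner membrane. In the newborn lung the respiratory chain supplies the ATP for surfactant secretion and for the clearance of fluid.

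The summed normalized values of the 4 libraries lay between 18658239 and 19987634. Ryk itself had values of 2757 and 2203 in mutant lungs and of 2528 and 2525 in wild-type lungs (log2 fold change -0.04, limma, adjusted p = 0.926), so its RNA level does not tell the genotypes apart. Mutant lung 1 differs from the other 3 in sex, since Xist, transcribed from an inactive X chromosome, had a value of 24836 there, 9 in mutant lung 2, and 7 and 23 in wild-type lungs. No mitochondrial ribosomal protein gene lies on the X or the Y chromosome; the 76 genes are spread over 17 autosomes. Genes expressed in lung were present at high values in all 4 lungs, such as Sftpc of type II cells at 179120 and 135559 in mutant lungs and 220945 and 200581 in wild-type lungs. These are whole lobes, so fewer cells of a type and less RNA per cell cannot be told apart in any value below.

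Most mitochondrial ribosomal protein genes had lower values in mutant than in wild-type lungs, by a small amount. The median log2 fold change (mutant minus wild type, on log2(value + 1)) was -0.21 over the 47 large-subunit genes, which is a difference of -13.3%, and -0.27 over the 29 small-subunit genes, a difference of -17.2%. Over all 18436 tested genes it was -0.02. The fold change was below 0 for 39 of the 47 large-subunit genes and for 24 of the 29 small-subunit genes, against 51.7% of all tested genes. Both mutant lungs lay below both wild-type lungs in 27 large-subunit and 18 small-subunit genes, which is 59.2% of the 76, where the background over all tested genes was 26.9%. Both mutant lungs lay above both wild-type lungs in 1 gene of each subunit, Mrpl9 and Mrps9, against a background of 25.7%. In the other 29 genes, 19 large-subunit and 10 small-subunit, the genotypes overlapped.

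No single gene of either subunit passed the test. In limma's moderated test with Benjamini-Hochberg adjustment over all 18436 genes, 0 of the 76 genes had an adjusted p under 0.05, where 2.39% of all tested genes did, 0.917% as lower and 1.47% as higher in mutant lungs. The smallest adjusted p was 0.0953, for Mrpl42. At an unadjusted p under 0.05 there were 14 genes with lower values in mutant lungs, 9 of the large and 5 of the small subunit (background 9.64%), and 0 with higher values (background 10.4%). With 2 lungs a genotype, the median standard error of a log2 fold change was 0.166 for large-subunit and 0.168 for small-subunit genes, close to the size of the median differences themselves. Without mutant lung 1 the same test called Mrpl44 (log2 fold change -0.71, adjusted p = 0.0463) and Mrps35 (-0.68, adjusted p = 0.0461), where 12.9% of all tested genes were called, and without any other lung it called 0.

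Each mutant lung was lower on its own. Relative to the mean of the wild-type lungs, the median large-subunit gene stood at -0.24 in mutant lung 1 and at -0.22 in mutant lung 2 on the log2 scale, and the median small-subunit gene at -0.32 and -0.20. Wild-type lung 1 exceeded wild-type lung 2 by a median of 0.03 for the large and 0.07 for the small subunit. Over all tested genes the medians of the mutant lungs were 0.00 and -0.02. Mutant lung 1 lay below both wild-type lungs in 65 of the 76 genes and above both in 6, and mutant lung 2 lay below both in 48 and above both in 15. Of all 18436 tested genes, mutant lung 1 lay below both in 7754 and above both in 7540. For mutant lung 2 these numbers were 8251 and 7743. Gene by gene the mutant lungs scattered more than the wild-type lungs: the SD of the log2 difference over the 76 genes was 0.292 between mutant lungs and 0.150 between wild-type lungs, against 0.600 and 0.314 over all tested genes.

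**Figure D1:**
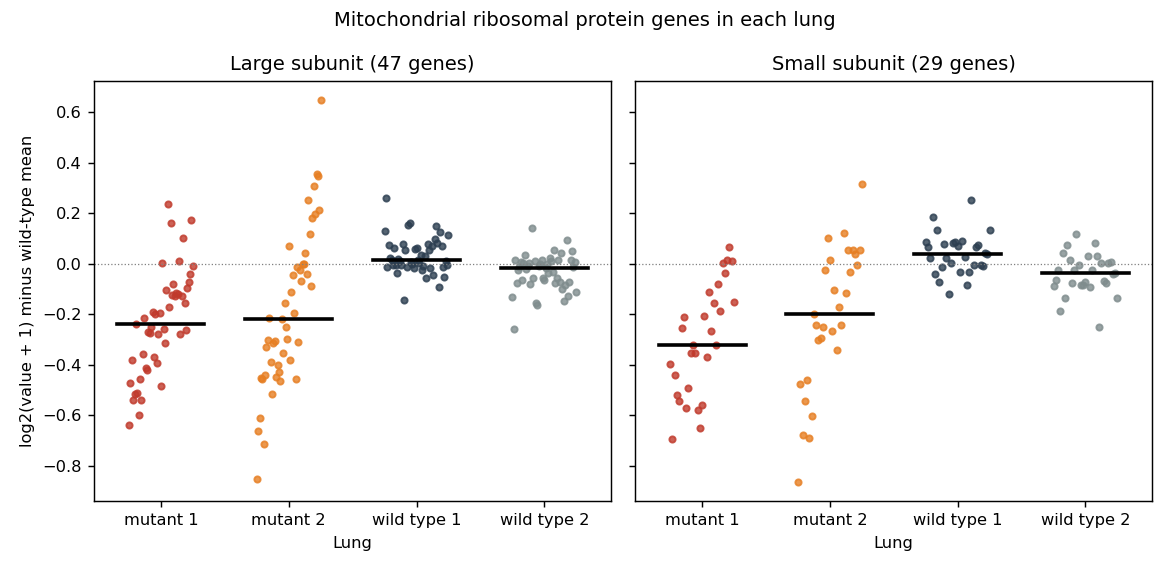
Level of every mitochondrial ribosomal protein gene in each lung. The y axis gives log2(value + 1) minus the mean of the wild-type lungs, each point is a gene, the black bars are medians, and the 2 panels hold the 47 large-subunit and 29 small-subunit genes. The medians stand at -0.24 and -0.22 in mutant lungs 1 and 2 for the large subunit and at -0.32 and -0.20 for the small subunit, and the points of the mutant lungs spread more widely than those of the wild-type lungs.

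Summed over genes, the large subunit had values of 20559 and 21883 in mutant lungs and of 24383 and 23280 in wild-type lungs. For the small subunit the sums were 9693 and 10476 in mutant lungs and 12096 and 11341 in wild-type lungs. Neither pair of sums overlapped between the genotypes. Large-subunit over small-subunit sums gave ratios of 2.12 and 2.09 in mutant lungs and of 2.02 and 2.05 in wild-type lungs. The ratios were close, with both mutant lungs slightly above both wild-type lungs. All 76 genes together took 0.155% and 0.162% of the library in mutant lungs and 0.195% and 0.186% in wild-type lungs.

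The promoters of 4 genes are shown: Mrpl42 and Mrps12 with the lowest fold change of each subunit, Mrpl51 with close replicates, and Mrpl9 as the large-subunit gene with both mutant lungs above both wild-type lungs. Mrpl42 (ENSMUSG00000062981, chromosome 10, 95480806 to 95501927, GRCm38), a large-subunit protein with no bacterial counterpart, had values of 378 and 326 in mutant lungs and of 645 and 537 in wild-type lungs, with a log2 fold change of -0.74 and a standard error of 0.173. Mrps12 (ENSMUSG00000045948, chromosome 7, 28739641 to 28741820), the counterpart of the bacterial decoding-centre protein whose mutations give streptomycin resistance, had 177 and 128 in mutant lungs and 248 and 220 in wild-type lungs (-0.63, standard error 0.222; limma, adjusted p = 0.201). Neither gene's genotypes overlapped. Mrpl51, another large-subunit protein of the mitochondrial lineage, had 547 and 576 in mutant lungs and 778 and 784 in wild-type lungs (-0.48, standard error 0.137; limma, adjusted p = 0.144), and the replicates of each genotype lay close together. Mrpl9, the counterpart of a bacterial large-subunit protein, had 769 and 791 in mutant lungs and 679 and 685 in wild-type lungs. Both mutant lungs were above, by a log2 fold change of 0.19 (standard error 0.135), but the gene did not pass (limma, adjusted p = 0.471). The sequences are RefSeq's for GRCm38.p6, from 250 bases before to 50 bases after the annotated start, 5′ to 3′ on the gene's strand. Capitals mark matches on either strand to 5 motifs: CCGGAAG of the ETS factors, to which GABP belongs, the NRF1 motif with GCGCA and GCGC 1 base apart, AANATGGCG of YY1, the CCAAT box and the TATA box TATAAA.
Mrpl42, chr10:95501900-95502199, minus strand: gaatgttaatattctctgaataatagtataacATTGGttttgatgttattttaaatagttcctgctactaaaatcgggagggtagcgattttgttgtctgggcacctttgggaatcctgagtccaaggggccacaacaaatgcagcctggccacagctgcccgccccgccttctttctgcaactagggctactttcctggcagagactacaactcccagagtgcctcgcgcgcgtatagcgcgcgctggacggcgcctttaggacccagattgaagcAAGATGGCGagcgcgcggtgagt
Mrps12, chr7:28741772-28742071, minus strand: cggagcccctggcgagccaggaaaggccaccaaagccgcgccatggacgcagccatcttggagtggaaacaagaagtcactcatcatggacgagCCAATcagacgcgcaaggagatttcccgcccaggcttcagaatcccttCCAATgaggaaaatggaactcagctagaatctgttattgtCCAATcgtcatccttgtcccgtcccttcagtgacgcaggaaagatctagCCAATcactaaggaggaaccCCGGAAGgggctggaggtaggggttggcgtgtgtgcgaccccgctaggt
Mrpl51, chr6:125191950-125192249, plus strand: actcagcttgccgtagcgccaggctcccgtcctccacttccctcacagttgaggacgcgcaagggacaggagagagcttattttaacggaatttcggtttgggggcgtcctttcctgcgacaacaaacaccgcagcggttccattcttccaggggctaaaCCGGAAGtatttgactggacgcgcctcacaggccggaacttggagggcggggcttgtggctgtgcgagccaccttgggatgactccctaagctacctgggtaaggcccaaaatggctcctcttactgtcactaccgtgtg
Mrpl9, chr3:94443086-94443385, plus strand: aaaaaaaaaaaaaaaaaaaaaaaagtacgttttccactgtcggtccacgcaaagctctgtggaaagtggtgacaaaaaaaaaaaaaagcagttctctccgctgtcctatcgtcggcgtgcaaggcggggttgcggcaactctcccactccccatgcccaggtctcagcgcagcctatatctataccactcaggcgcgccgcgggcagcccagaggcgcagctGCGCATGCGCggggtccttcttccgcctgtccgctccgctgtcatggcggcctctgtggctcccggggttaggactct

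In these 4 windows no 2 matches overlapped. The Mrpl42 window held a YY1 match beginning 27 bases past the start and a reversed CCAAT box. Mrps12 held an ETS match 1 base past the start and 4 CCAAT boxes before it, Mrpl51 an ETS match before the start, and Mrpl9 an NRF1 match before the start. NRF1, GABP and YY1 are transcription factors known to bind promoters of nuclear genes for mitochondrial proteins. RefSeq promoters were matched for 67 of the 76 genes, 73 promoters in all, and not for Mrpl4, Mrpl13, Mrpl15, Mrpl19, Mrpl38, Mrpl54, Mrps28, Mrps34 and Mrps35. The ETS motif was in 32.9% of the 73 promoters, against 15.4% of 14174 promoters of tested protein-coding genes and 8.86% of all 32851 promoters in the table. For NRF1 the shares were 17.8%, 8.85% and 4.60% in the same order, and for YY1 13.7%, 4.35% and 2.38%. CCAAT boxes were at 39.7%, 37.0% and 37.4%, and TATA boxes at 6.85%, 7.70% and 13.6%. By subunit, the ETS motif was in 28.3% of large-subunit and 40.7% of small-subunit promoters, and the NRF1 motif in 21.7% and 11.1%. The 24 genes with an ETS match had a median log2 fold change of -0.26, and the 43 without had -0.23. With and without a YY1 match the medians were -0.27 over 10 genes and -0.22 over 57, and with and without an NRF1 match -0.11 over 13 genes and -0.27 over 54. These are descriptions of letters in a window, not of binding.

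**Figure D2:**
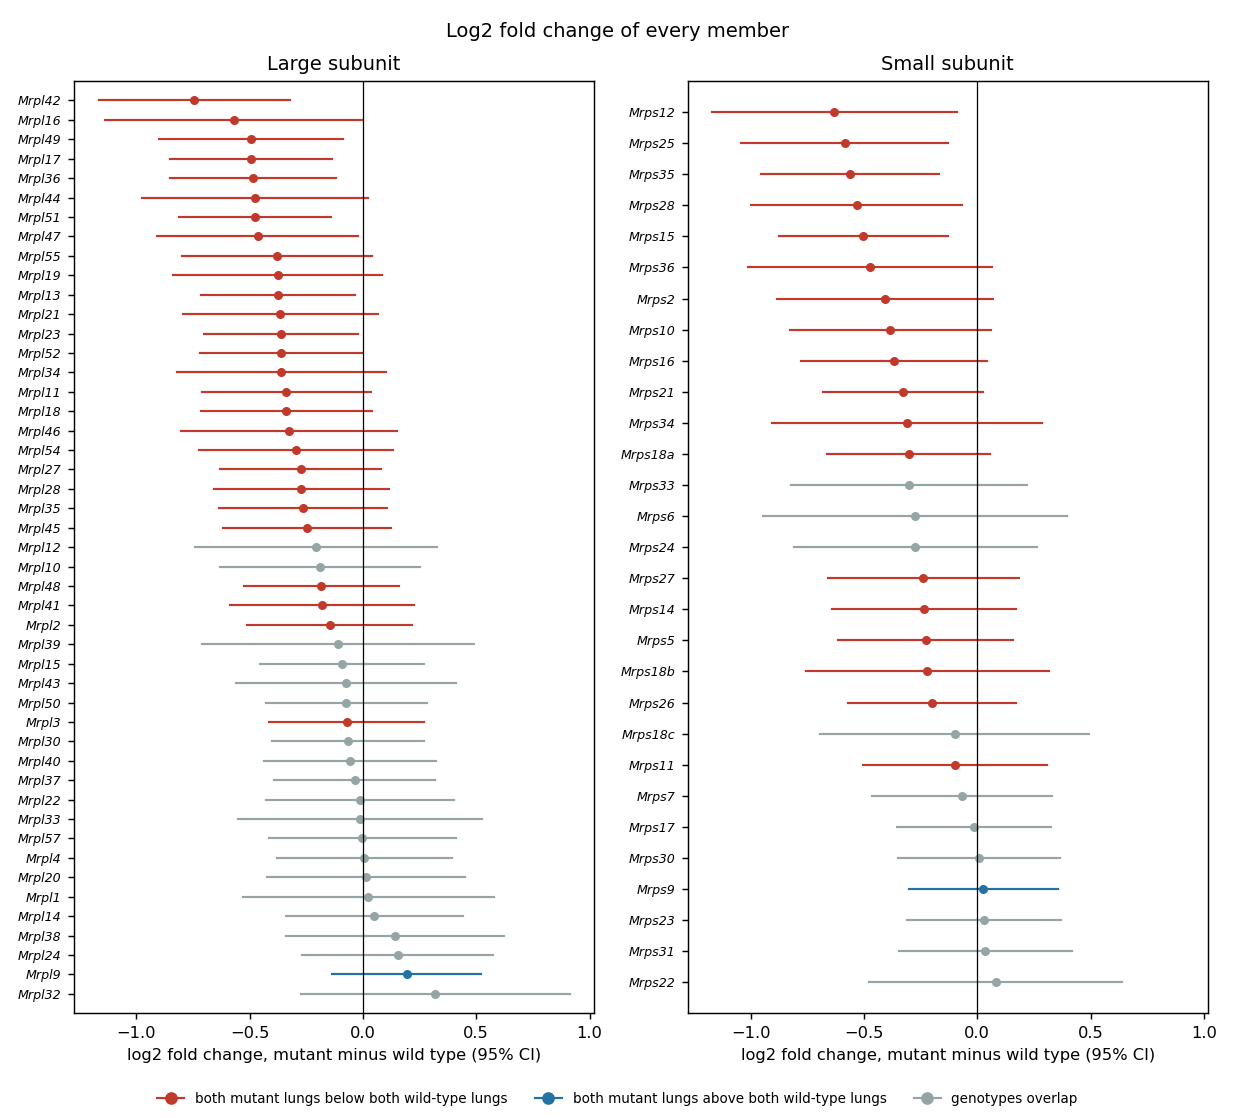
Log2 fold change of each of the 76 genes, mutant minus wild type, with its 95% confidence interval from limma, for the large subunit on the left and the small subunit on the right. Red marks the 45 genes with both mutant lungs below both wild-type lungs, blue the 2 genes with both above (Mrpl9 and Mrps9) and grey the 29 genes whose genotypes overlap. Most points lie left of 0, from -0.74 for Mrpl42 to 0.32 for Mrpl32.

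Among large-subunit genes, the 4 lowest fold changes with no overlap belonged to Mrpl42, Mrpl16, Mrpl49 and Mrpl17. Mrpl16, whose bacterial counterpart lies beside the peptidyl transferase centre, had values of 162 and 142 in mutant lungs and of 270 and 188 in wild-type lungs, a log2 fold change of -0.57 (standard error 0.233; limma, adjusted p = 0.250). Wild-type lung 1 stood well above the other 3 lungs in this gene. Mrpl17, the counterpart of a protein near the bacterial exit tunnel, had 462 and 492 in mutant lungs and 708 and 639 in wild-type lungs (-0.50, standard error 0.147; limma, adjusted p = 0.151). Mrpl49, of the mitochondrial lineage, had 285 and 243 in mutant lungs and 368 and 375 in wild-type lungs (-0.50, standard error 0.166; limma, adjusted p = 0.185). In both genes the gap between the genotypes was larger than either replicate gap. Mrpl36, the counterpart of the smallest protein of the bacterial large subunit, had 303 and 315 in mutant lungs and 440 and 426 in wild-type lungs (-0.49, standard error 0.149; limma, adjusted p = 0.160). The genes Mrpl13, Mrpl23, Mrpl47 and Mrpl52 were the others at an unadjusted p under 0.05, with log2 fold changes of -0.37, -0.36, -0.46 and -0.36. Of these, Mrpl47 had 190 and 229 in mutant lungs and 301 and 276 in wild-type lungs, and 23.3% of its sequence is shared with other genes.

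The stalk of the large subunit, which receives the translation factors, is built from Mrpl10, Mrpl11 and Mrpl12. Mrpl11, at the stalk base, had 380 and 348 in mutant lungs and 478 and 443 in wild-type lungs, with a log2 fold change of -0.34, and its genotypes did not overlap. Mrpl12, the stalk protein that is also known to bind the mitochondrial RNA polymerase, had 310 and 456 in mutant lungs and 454 and 415 in wild-type lungs (-0.21). Only mutant lung 1 was low in Mrpl12, and without that lung the fold change was 0.07. Mrpl10, the stalk's anchor, had 476 and 365 in mutant lungs and 481 and 470 in wild-type lungs (-0.19), with mutant lung 2 low and mutant lung 1 level with the wild type. Their adjusted p-values in limma were 0.283, 0.644 and 0.603 for Mrpl11, Mrpl12 and Mrpl10. Thus the stalk genes differed in which mutant lung was lower.

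Mrpl44, which carries a fold of the RNase III family and is mutated in a human cardiomyopathy, had 313 and 225 in mutant lungs and 373 and 366 in wild-type lungs (log2 fold change -0.48, standard error 0.204; limma, adjusted p = 0.265). Both mutant lungs were below, mutant lung 2 by more. Mrpl41, of the mitochondrial lineage, had 329 and 396 in mutant lungs and 419 and 399 in wild-type lungs (-0.18), where mutant lung 2 nearly reached the wild type. Mrpl3, the counterpart of a bacterial protein that helps to start assembly of the subunit, had 591 and 596 in mutant lungs and 648 and 601 in wild-type lungs (-0.07). Its genotypes did not overlap, but the margin between mutant lung 2 and wild-type lung 2 was small. Fold changes above 0 were seen in 8 large-subunit genes, and the highest, 0.32 for Mrpl32, came from mutant lung 2 with 753, beside 477 in mutant lung 1 and 519 and 444 in wild-type lungs. Mrpl39 showed the opposite, with 569 in mutant lung 1 and 351 in mutant lung 2, against 479 and 486 in wild-type lungs. Mrps6 of the small subunit had the widest gap between mutant lungs, 160 and 270, with 267 and 237 in wild-type lungs.

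Small-subunit genes with the lowest fold changes and no overlap were Mrps12, Mrps25, Mrps35 and Mrps28. Mrps35, of the mitochondrial lineage, had 362 and 307 in mutant lungs and 500 and 484 in wild-type lungs, a log2 fold change of -0.56 (standard error 0.161; limma, adjusted p = 0.144). Mrps28 had 224 and 220 in mutant lungs and 366 and 282 in wild-type lungs (-0.53, standard error 0.191; limma, adjusted p = 0.207). Mutant lungs agreed closely in Mrps28 while the wild-type lungs did not. Mrps25, of the mitochondrial lineage, had 135 and 157 in mutant lungs and 229 and 209 in wild-type lungs (-0.58, standard error 0.187; limma, adjusted p = 0.172). On either strand, 68.2% of the Mrps25 sequence is also found in other genes, chiefly Nr2c2 on the opposite strand. Whether reads of Mrps25 were told apart from those depends on the strand setting of the counting, which is not given. Mrps15 had 284 and 301 in mutant lungs and 403 and 427 in wild-type lungs (-0.50, standard error 0.153; limma, adjusted p = 0.158). Mrps9, the only small-subunit gene with both mutant lungs above, had 687 and 699 in mutant lungs and 676 and 684 in wild-type lungs, a log2 fold change of 0.03 that turned to -0.02 under quantile normalization and to -0.05 with equal library totals.

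Several small-subunit genes are known for their place in the ribosome or in human disease. Mrps2 and Mrps16, counterparts of bacterial proteins, had log2 fold changes of -0.41 and -0.37. Mrps2 had 304 and 231 in mutant lungs and 334 and 370 in wild-type lungs, and Mrps16 had 332 and 395 in mutant lungs and 493 and 443 in wild-type lungs, both with no overlap. Mrps27, which contains pentatricopeptide repeats like many RNA-binding proteins of organelles, had 176 and 169 in mutant lungs and 199 and 208 in wild-type lungs (-0.24). Mrps34, mutated in Leigh syndrome, was among the lowest genes of the set with 52 and 53 in mutant lungs and 60 and 71 in wild-type lungs (-0.31), and 71.8% of its sequence is shared with other genes. Mrps22, mutated in a neonatal mitochondrial disease, had the highest fold change of the subunit, 0.08, with 172 and 238 in mutant lungs and 210 and 174 in wild-type lungs. In it the mutant lungs lay on either side of the wild type, and none of these 5 genes passed (limma, adjusted p from 0.288 to 0.876).

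Mrps18a, Mrps18b and Mrps18c encode 3 variants of the same bacterial protein, and Mrps18a is known to sit in the large subunit of the assembled ribosome. Mrps18a had 376 and 404 in mutant lungs and 482 and 480 in wild-type lungs (log2 fold change -0.30), with no overlap. Mrps18b had 72 and 77 in mutant lungs and 82 and 92 in wild-type lungs (-0.22). For Mrps18c the values were 289 and 393 in mutant lungs and 430 and 303 in wild-type lungs (-0.10), so that the genotypes overlapped. Mrps30, also found in the large subunit despite its name, had 416 and 443 in mutant lungs and 425 and 428 in wild-type lungs (0.01, and -0.07 with equal library totals). Mrps36 is now known as a subunit of the 2-oxoglutarate dehydrogenase complex rather than of the ribosome, and had 221 and 163 in mutant lungs and 290 and 240 in wild-type lungs (-0.47). With Mrps18a and Mrps30 counted in the large subunit and Mrps36 left out, the medians were -0.21 for the large and -0.25 for the small subunit. Proteins with a bacterial counterpart and those of the mitochondrial lineage had similar medians, -0.21 over 29 and -0.18 over 17 genes in the large subunit and -0.27 over 16 and -0.22 over 10 genes in the small subunit.

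Levels differed far more between genes than between genotypes. Per kilobase of annotated transcript, the mean value of the 4 lungs spanned 37.7-fold over the large-subunit and 34.6-fold over the small-subunit genes, around medians of 338 and 241 per kilobase. Mrpl20 and Mrpl33 stood highest in the large subunit, with levels per kilobase of 1712 and 1641 in mutant lungs and 1690 and 1637 in wild-type lungs. In normalized values Mrpl20 had 747 and 944 in mutant lungs and 908 and 762 in wild-type lungs, and Mrpl33 had 641 and 928 in mutant lungs and 863 and 702 in wild-type lungs. Both genes overlapped between the genotypes, with log2 fold changes of 0.01 for Mrpl20 (-0.04 under quantile normalization and -0.06 with equal library totals) and -0.01 for Mrpl33. Lowest per kilobase were Mrpl19, at 39.4 in mutant lungs and 50.9 in wild-type lungs, and Mrpl47, at 62.3 and 85.8. In the small subunit Mrps33 and Mrps17 were highest, at 939 and 989 per kilobase in mutant lungs and 1139 and 999 in wild-type lungs. Mrps33 had values of 545 and 801 in mutant lungs and 863 and 770 in wild-type lungs (log2 fold change -0.30), and Mrps17 had 869 and 848 in mutant lungs and 912 and 823 in wild-type lungs (-0.01). Mrps25, at 24.0 per kilobase in mutant lungs and 36.1 in wild-type lungs, and Mrps34, at 57.2 and 71.4, were the lowest. Of the sequence of Mrpl47, Mrps25 and Mrps34, 23.3%, 68.2% and 71.8% is shared with other genes. With Mrpl19 also sharing sequence, the low ends of both spans are uncertain. Mrpl19, with 175 and 219 in mutant lungs and 248 and 261 in wild-type lungs, had a log2 fold change of -0.38, and 37.0% of its sequence is shared, mostly with Gcfc2 on the opposite strand.

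Reads of some of these genes could also be given to other genes. More than 10% of the transcript sequence was found in other genes for 19 of the 76 and more than 50% for 2, Mrps25 and Mrps34, and exons of another gene overlapped by at least 100 bases in 18. In the 49 genes with neither, the medians were -0.25 over 31 large-subunit genes and -0.27 over 18 small-subunit genes; this split was chosen after seeing the data.

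Mitochondrial ribosomal protein genes have short transcripts, and short transcripts as a class had lower values in mutant lungs. The median annotated length was 1225 bases for the 76 genes and 2680 bases for the protein-coding genes tested. With the protein-coding genes cut into 5 equal groups by length, in the group with the shortest transcripts, from 195 to 1519 bases, the median log2 fold change was -0.13, and both mutant lungs lay below both wild-type lungs in 38.8%. In the group with the longest transcripts, from 4371 bases, the median was 0.12 and that share 18.8%. The rank correlation of length with fold change was 0.19 over 14690 protein-coding genes and 0.07 over the 76, a description across genes of the same 4 libraries. The 49 mitochondrial ribosomal protein genes in the shortest group had a median of -0.27, with 27 of them lower in both mutant lungs than in both wild-type lungs, and the medians of the genes in the other groups lay between -0.11 and -0.38. With a smooth trend on transcript length taken out of each library, the medians were -0.11 for the large subunit and -0.21 for the small subunit, and 56 of the 76 genes were below 0, 55 of them below 0 also without that step.

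**Figure D3:**
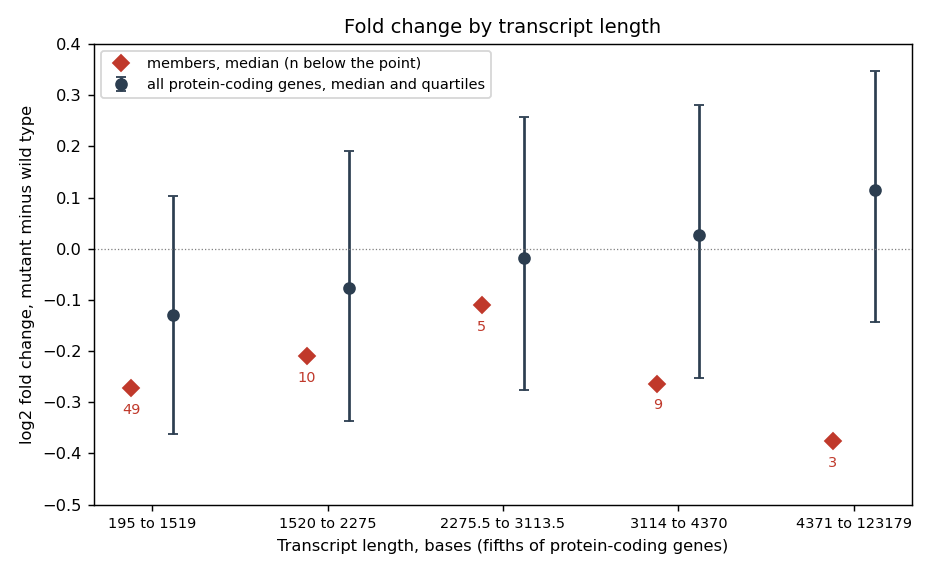
Log2 fold change, mutant minus wild type, by transcript length. The x axis holds 5 equal groups of protein-coding genes by length in bases; red diamonds are the medians of the mitochondrial ribosomal protein genes with their number below, and dark points with bars are the median and quartiles of all protein-coding genes. The dark medians climb from -0.13 in the shortest to 0.12 in the longest group, and the diamonds lie below them in every group, with 3 genes in the longest.

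Genes that work with the mitochondrial ribosome mostly had medians below 0 as well. In the main fit these were of smaller size than those of the subunits, though by little for the genes that charge tRNAs. That order depended on the processing. With the length trend removed, translation factors (-0.17) and the genes that charge tRNAs (-0.15) had lower medians than the large subunit (-0.11). Of 22 genes for its assembly, 18 were below 0, with a median log2 fold change of -0.19 (-0.09 with the length trend removed). Both mutant lungs lay below both wild-type lungs in 14 of them, where the background over all tested genes was 26.9%. Among them Mrm2, which methylates the large ribosomal RNA, had 55 and 49 in mutant lungs and 74 and 88 in wild-type lungs (-0.63), and Trub2, a pseudouridine synthase homologue, had 387 and 352 in mutant lungs and 500 and 458 in wild-type lungs (-0.37). Of 16 translation factors and helpers, 13 were below 0 with a median of -0.19, including the elongation factor Tufm with 417 and 393 in mutant lungs and 483 and 556 in wild-type lungs (-0.36) and the activator of Cox1 translation Taco1 with 87 and 63 in mutant lungs and 110 and 99 in wild-type lungs (-0.49). The 20 genes that charge mitochondrial tRNAs had a median of -0.20 (-0.12 without mutant lung 2), with 15 below 0. Ears2, for glutamate, had 101 and 81 in mutant lungs and 154 and 122 in wild-type lungs, and Vars2, for valine, had 331 and 338 in mutant lungs and 436 and 432 in wild-type lungs. The 6 mitoribosome subunits with names outside the Mrpl and Mrps series had a median of -0.07 with 5 below 0, from -0.48 for Gadd45gip1, with 96 and 107 in mutant lungs and 142 and 141 in wild-type lungs, to 0.03 for Dap3; without mutant lung 1 their median was 0.02, with 3 below 0. Aurkaip1, another of the 6, had 648 and 622 in mutant lungs and 748 and 706 in wild-type lungs (-0.19). In these 4 lists 0 genes passed limma at an adjusted p under 0.05. At an unadjusted p under 0.05 there were 3, all lower (Mrm2, Ears2 and Vars2), where 9.64% of all tested genes were lower.

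A list of nuclear genes for the respiratory chain and ATP synthase was taken by gene symbol. Over its 80 measured genes the median log2 fold change was -0.24 (-0.16 with the length trend removed), with 71 below 0. Both mutant lungs lay below both wild-type lungs in 46 (background 26.9%). Cox5a, of cytochrome oxidase, had 363 and 320 in mutant lungs and 486 and 502 in wild-type lungs (-0.53; limma, adjusted p = 0.145), and Atp5g1, for the membrane ring of ATP synthase, had 562 and 419 in mutant lungs and 806 and 751 in wild-type lungs (-0.68; limma, adjusted p = 0.131). The 13 mRNAs that the mitochondrial ribosome itself translates, encoded in mitochondrial DNA, did not share that direction: their median was 0.15 with 0 below 0, though 4 were below 0 under quantile normalization and 1 with equal library totals. Without mutant lung 1, 2 of the 13 were below 0, without mutant lung 2 also 2, and without wild-type lung 2 there was 1. The ATP synthase mRNA mt-Atp8 had 8621 and 10989 in mutant lungs and 7852 and 7763 in wild-type lungs (0.32). For mt-Nd3, of complex I, the values were 10391 and 17679 in mutant lungs and 10618 and 10137 in wild-type lungs (0.39), so mutant lung 2 alone stood apart. Of 19 measured genes that copy, transcribe or process mitochondrial DNA and RNA, 11 were below 0 with a median of -0.08 (0.01 under quantile normalization and without mutant lung 1, 0.00 with the length trend removed, and -0.17 without mutant lung 2). The DNA polymerase Polg had 1722 and 2134 in mutant lungs and 1235 and 1501 in wild-type lungs (0.49; limma, adjusted p = 0.205), and the elongation factor Tefm had 130 and 172 in mutant lungs and 200 and 199 in wild-type lungs (-0.41). No gene of these 3 lists passed in limma. At an unadjusted p under 0.05, 13 genes of the respiratory chain and ATP synthase list were lower (background 9.64%). They include Cox6a2 (-1.32) and Cox8b (-1.24), both at low values. Cox6a2 had 18 and 38 in mutant lungs and 72 and 62 in wild-type lungs. For Cox8b these were 13 and 8 in mutant lungs and 25 and 26 in wild-type lungs. Whether these 2 genes follow the heart muscle genes given below was not tested. In that list 1 gene, Atp5sl (0.49), was higher (background 10.4%), and Polg was higher in its own list. Since the first list was taken by symbol, not every gene on it need encode a subunit.

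Cytosolic ribosomal protein genes did not share the direction in both mutant lungs. Their median over 79 genes was 0.03, and it turned to -0.09 under quantile normalization and to -0.05 with equal library totals. Relative to the wild-type mean it was -0.13 in mutant lung 1 and 0.17 in mutant lung 2. Rpl36al, with 1922 and 1685 in mutant lungs and 2464 and 2172 in wild-type lungs (log2 fold change -0.36; limma, adjusted p = 0.251), and Rpl29, with 4935 and 3486 in mutant lungs and 4878 and 5165 in wild-type lungs (-0.28), had the smallest p-values of the list.

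**Figure D4:**
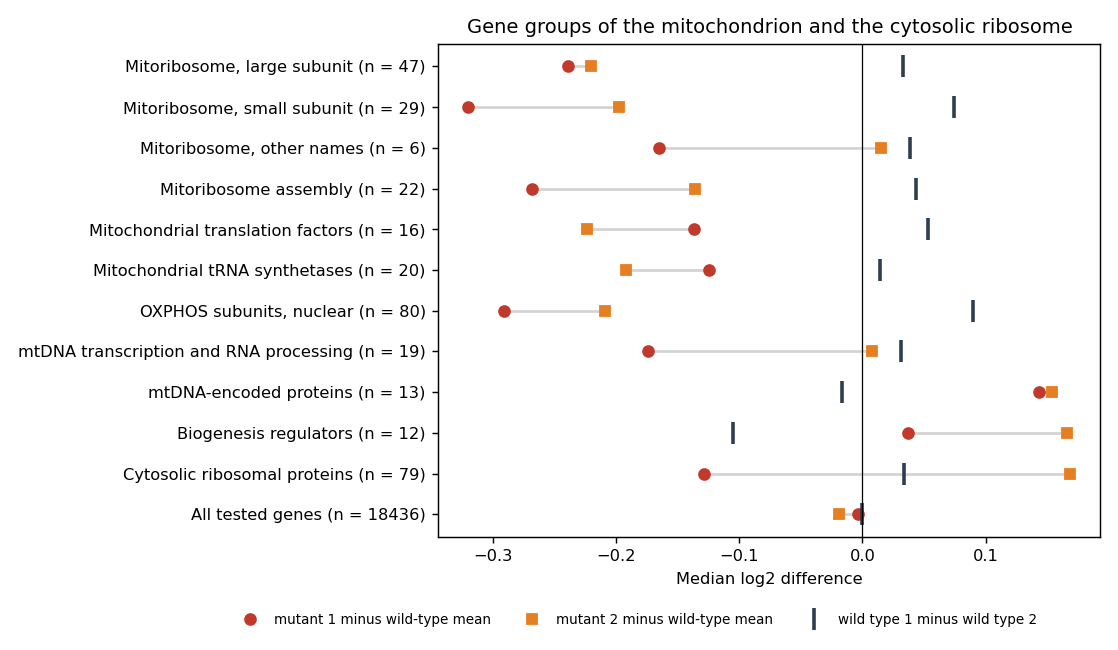
Median log2 difference of gene groups of the mitochondrion and of the cytosolic ribosome. Red circles and orange squares give mutant lungs 1 and 2 minus the wild-type mean, dark ticks give wild-type lung 1 minus wild-type lung 2, and n is the number of genes. Both mutant lungs lie left of 0 for both mitoribosome subunits, assembly, translation factors, tRNA synthetases and nuclear respiratory chain subunits, and right of 0 for the mRNAs of mitochondrial DNA, while the cytosolic ribosomal proteins have the mutant lungs on either side of 0 and a median over both that changes sign with the scaling.

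Among 12 known regulators of mitochondrial biogenesis, 1 passed the test, where 2.39% of all tested genes did. Mycn, a MYC family transcription factor that promotes growth and the making of ribosomes, fell to 29 and 26 in mutant lungs, against 103 and 120 in wild-type lungs (log2 fold change -1.98, standard error 0.250; limma, adjusted p = 0.0243). The lungs of the genotypes did not overlap, by a wide margin. The call was lost without mutant lung 2, without either wild-type lung and with no filter on low values, where limma called 0 of all tested genes. Its relative Myc had 107 and 219 in mutant lungs and 107 and 114 in wild-type lungs, which overlap. Ppargc1a, the coactivator known for inducing mitochondrial genes, had 289 and 1173 in mutant lungs and 213 and 185 in wild-type lungs (1.55, standard error 0.601; limma, adjusted p = 0.230), with mutant lung 2 far above the other 3. The factors whose motifs are marked in the promoters had log2 fold changes of 0.10 for Nrf1, 0.13 for Gabpa, -0.42 for Gabpb1 and 0.24 for Yy1. Of these Gabpb1, the partner of Gabpa in GABP, had 552 and 475 in mutant lungs and 694 and 680 in wild-type lungs (limma, adjusted p = 0.205). Over the 12 regulators the median was 0.11, with 5 below 0.

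Many mitochondrial ribosomal protein genes lie head to head with another gene, so the neighbours could be read in the same lungs. For 33 of the 76, 24 of the large and 9 of the small subunit, a protein-coding gene on the opposite strand starts within 1000 bases, which is 43.4%, against 14.7% of 14690 tested protein-coding genes. Leaving out 2 partners under the minimum and the pair Mrps11 and Mrpl46, which are partners of each other, 29 neighbours were tested. Their median log2 fold change was 0.01 with 13 below 0. Both mutant lungs lay below both wild-type lungs in 4 of them, where the background over all tested genes was 26.9%. For the 29 mitochondrial ribosomal protein genes of the same pairs the median was -0.22 and that number 18. Mrps12 and Sars2, which charges mitochondrial tRNA with serine, start 172 bases apart; Sars2 had 93 and 86 in mutant lungs and 110 and 107 in wild-type lungs (-0.28). Mrpl36 lies 29 bases from Ndufs6, a complex I subunit with 484 and 422 in mutant lungs and 637 and 579 in wild-type lungs (-0.43). In these pairs both genes were lower in mutant lungs. Beside Mrpl44, Wdfy1 had 966 and 1502 in mutant lungs and 781 and 767 in wild-type lungs (0.64), the opposite side from Mrpl44. The 1 neighbour that passed, where 2.39% of all tested genes did, was Pnpla7, a lysophospholipase gene that starts 935 bases from Mrpl41. It had values of 674 and 1150 in mutant lungs and 275 and 299 in wild-type lungs (1.62, limma, adjusted p = 0.0421). That call was lost with the length trend removed (adjusted p = 0.0549), without the mean-variance trend, with no filter on low values, and without mutant lung 2 or either wild-type lung.

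**Figure D5:**
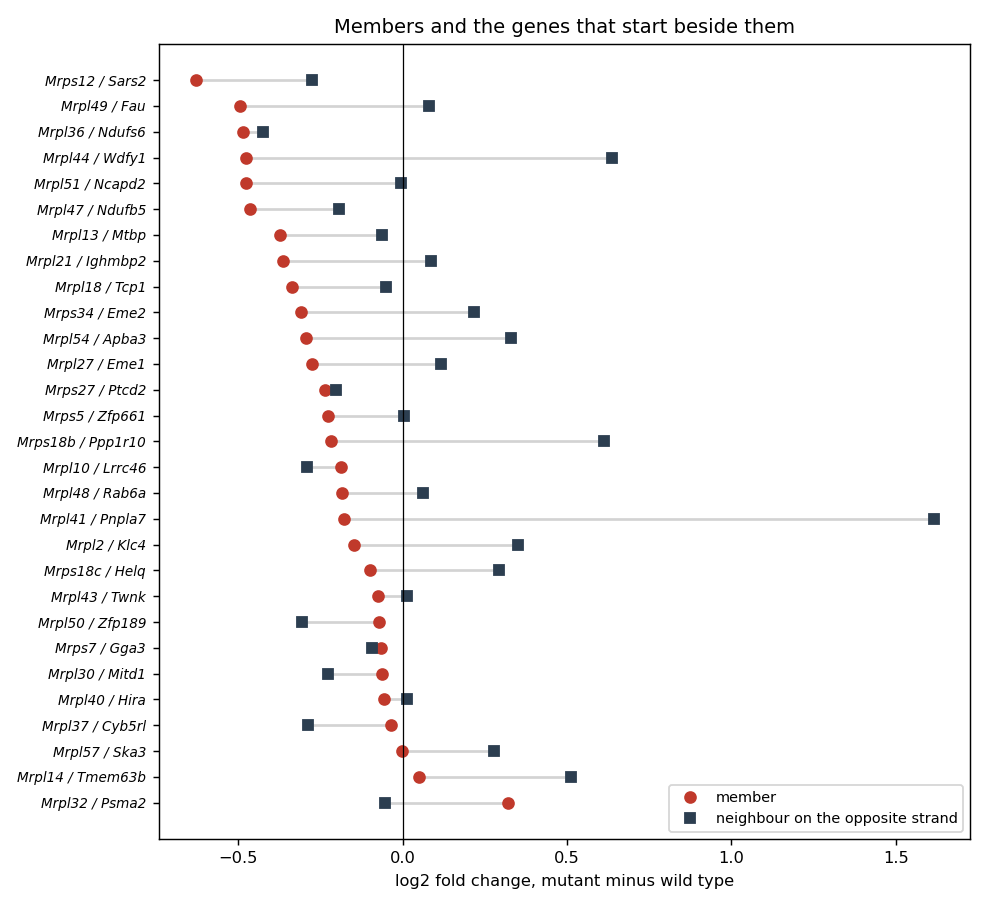
Log2 fold change, mutant minus wild type, of 29 mitochondrial ribosomal protein genes (red circles) and of the gene that starts within 1000 bases on the opposite strand (dark squares), 1 pair a row. The circles have a median of -0.22 and the squares of 0.01, and Pnpla7 beside Mrpl41 stands farthest right at 1.62.

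Markers of other tissues and states moved between these lungs as well. Of 12 heart muscle genes 11 were measured, all below 0, with a median log2 fold change of -0.72. In limma 3 fell at an adjusted p under 0.05, where 0.917% of all tested genes were called lower. Myl7, an atrial myosin light chain, had 394 and 460 in mutant lungs and 1333 and 1288 in wild-type lungs (-1.62; adjusted p = 0.0109), and Myl4 and Mybpc3 had log2 fold changes of -1.28 and -1.45 (limma, adjusted p = 0.0314 and 0.0315). The summed level of the 12 heart genes was 4691 and 4117 in mutant lungs and 8155 and 8251 in wild-type lungs, and Nppa was at 3 and 1 in mutant lungs and 1 and 1 in wild-type lungs. Of 12 proliferation genes 4 were below 0 and 8 above, with a median of 0.08 (6 below 0 with equal library totals). Only 1 passed, Mcm5, with 150 and 136 in mutant lungs and 307 and 278 in wild-type lungs (-1.03, limma, adjusted p = 0.0475). It thus ran against most of its list, and its call was lost under quantile normalization (limma, adjusted p = 0.0574). The sums of the proliferation list were 5272 and 4571 in mutant lungs and 5216 and 4416 in wild-type lungs. Its median relative to the wild-type mean was 0.54 in mutant lung 1 and -0.33 in mutant lung 2. Of 10 erythroid genes 9 were measured, 8 of them below 0 and 0 passing, with sums of 680157 and 813190 in mutant lungs and 732711 and 853198 in wild-type lungs. Of 6 brown fat genes 2 met the minimum, Ppargc1a and Cox7a1, the second with 16 and 33 in mutant lungs and 42 and 49 in wild-type lungs, and the defining gene Ucp1 was near 0, at 3 and 1 in mutant lungs and 1 and 0 in wild-type lungs. Lung cell type markers had a median of -0.18 over 14 genes, with 9 below 0, 5 above 0 and 0 passing. The smallest p-values were those of Wnt2 of the mesenchyme and Col1a1 of fibroblasts. Wnt2 had 413 and 193 in mutant lungs and 1132 and 1003 in wild-type lungs (-1.91, limma, adjusted p = 0.0551). Col1a1 had 5459 and 5559 in mutant lungs and 8273 and 8058 in wild-type lungs. In the same list Foxf1 and Tbx4 had log2 fold changes of -0.10 and 0.17. The list summed to 315623 and 266080 in mutant lungs and 377054 and 358365 in wild-type lungs, with Sftpc as the largest part. Without the mean-variance trend, with no filter on low values, and without mutant lung 2 or either wild-type lung, limma called neither Mcm5 nor any of the 3 heart genes. The part of these differences in the values of the mitochondrial ribosomal protein genes was not tested.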

How the data were processed

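Per the labels' protocols, 3 micrograms of RNA from each of 4 left lung lobes went into a stranded mRNA library. The table that the authors deposited holds a score: whole numbers, named as normalized counts. Per the submitters' processing notes the tools were FastQC, STAR 2.4.0a, featureCounts 1.5.1 of Subread and DESeq2 1.14.1, with mm10 and GRCm38; for the scaling and the strand setting, the sources used here give nothing. Because the values are scaled and rounded, no count model was run. The test was limma 3.58.1 (R 4.3.3) with a mean-variance trend (4.07 prior degrees of freedom) on log2(value + 1), with two-sided p-values and Benjamini-Hochberg adjustment over the 18436 genes whose mean was 10 or more; fold changes of low genes are understated on this scale. Values under about 10 rest on few reads. Nothing says that replicate numbers pair lungs, and same-numbered lungs did not deviate together (correlation -0.06), so the main fit has no block.

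The members and gene lists were chosen with earlier results of these data known, as were the tests. Named members were those called, the 4 per subunit and direction with the largest fold change among those without overlap, members with a known special place, and the 2 highest and lowest per kilobase in each subunit; from other lists, genes called or else the 2 with the smallest p. Mrpl13, Mrpl23, Mrpl32, Mrpl36, Mrpl39, Mrpl51, Mrpl52, Mrps6, Mrps15 and Dap3, Myc, the other motif-binding factors, Cox6a2, Cox8b, Atp5sl, Sftpc, Foxf1, Tbx4, Nppa, Ucp1 and the neighbours were named after their values were seen. All 76 genes were found in GENCODE M21 (GRCm38) on the same chromosome. Transcript length is the median over a gene's protein-coding transcripts there, and shared sequence is the percent of its 50-base stretches found in other genes on either strand. Python 3.11.15, pandas 2.3.3, numpy 2.4.6 and matplotlib 3.10.9 did the rest.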

Additional observations from a re-analysis of the deposited data

How the results depend on the processing

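There were 2 lungs a genotype, and the values have no recoverable counts. In the main fit no mitochondrial ribosomal protein gene had an adjusted p under 0.05 in limma. In some of these genes, such as Mrpl17 and Mrpl49, the gap between the genotypes was still larger than either replicate gap. Calls over all genes numbered 440, against 0 in limma when low values were kept (4876 at an unadjusted p under 0.05), 72 without the mean-variance trend, and 0 to 2385 when each lung was left out in turn: 2385 without mutant lung 1, and 0 without mutant lung 2, wild-type lung 1 or wild-type lung 2 (5249, 917 and 1133 at an unadjusted p under 0.05). In fits with a lone lung of a genotype, that lung is assumed to vary like the others.

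The lower medians kept their sign under every alternative run. For the large subunit the median was -0.29 with equal library totals, under which the median of all genes was -0.09; it was -0.11 with the length trend removed, -0.25 without genes of shared sequence (an alternative chosen after seeing the data), and -0.17 to -0.24 leaving out each lung. For the small subunit it was -0.35 with equal library totals and -0.20 to -0.33 leaving out each lung. Of the 76 genes, 56 to 71 were below 0. Calls among them numbered 0 except without mutant lung 1, when each subunit had 1, so the leave-one-out range was 0 to 1.

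A replicate block gave 766 calls over all genes and 0 among the 76, and changed no median; same-numbered lungs share only a number.

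Of the 76 genes, the fold change turned above 0 in 2 and below 0 in 4 under quantile normalization, below 0 in 8 with equal library totals, above 0 in 8 and below 0 in 1 with the length trend removed, and above 0 in 16 and below 0 in 11 when some lung was left out; 47 were below 0 with every lung left out in turn. Among the 32 genes named by rule, the turned values were Mrpl20 to -0.036 and Mrps9 to -0.017 under quantile normalization; Mrpl20 to -0.065, Mrps9 to -0.051 and Mrps30 to -0.069 with equal library totals; Mrpl33 to 0.047, Mrps17 to 0.082 and Mrps30 to -0.0014 with the length trend removed. Leaving out each lung gave ranges that crossed 0, among the same 32, for Mrpl10 (-0.38 to 0.0016), Mrpl12 (-0.48 to 0.071), Mrpl20 (-0.15 to 0.18), Mrpl33 (-0.28 to 0.25), Mrps17 (-0.087 to 0.061), Mrps18c (-0.35 to 0.15), Mrps22 (-0.15 to 0.31) and Mrps30 (-0.036 to 0.055). The causes were not tested.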

Other observations

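Processed pseudogenes of these genes, which are copies without introns, appeared in the same table. Mrpl23-ps1 had values of 405 and 417 in mutant lungs and of 557 and 573 in wild-type lungs, between 72.0% and 79.5% of Mrpl23 in any lung. Mrps36-ps1 had 86 and 62 in mutant lungs and 107 and 103 in wild-type lungs, and Mrps36-ps2 had 74 and 54 in mutant lungs and 110 and 84 in wild-type lungs, between 33.1% and 42.9% of Mrps36 in any lung. Mrpl48-ps had 292 and 220 in mutant lungs and 276 and 285 in wild-type lungs, a share of Mrpl48 from 30.4% to 44.6%; its mutant lungs ran opposite to those of Mrpl48. Mrps36-ps3 was listed at 0 in all 4 lungs. Whether these values are reads of the pseudogenes or of their parents was not tested.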
